A study of Saccharomyces cerevisiae with 2 samples.

Results

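The regions described here are the 300 strongest DNase I hypersensitive sites (DHS) away from tRNA genes in each of 2 strains of the budding yeast Saccharomyces cerevisiae, 600 of 6030 DHS in all. A DHS is a place where the nuclease DNase I cuts chromatin readily. The first strain carried the Hsp90 temperature-sensitive allele G170D and the other was wild type (WT). Both had the laboratory background BY4741 and were held in rich YPD medium at 37 °C for 6 h. The G170D culture began at an OD of 0.37 and the WT culture at 0.25, and both ended between 0.65 and 0.7, so that growth over the 6 h differed with strain. Each strain had 1 library, so there is no replicate error, no test across samples was possible, and the values describe these 2 libraries. The labels do not name the Hsp90 gene that carried the allele.

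The 600 regions were chosen by the authors' deposited score, which was positive, had no stated formula, and was ranked within each list only. A DHS could be chosen if it was narrower than 1500 bp and had no base within 1 kb of any of the 275 nuclear tRNA genes. Of 2875 DHS in the G170D list 2394 passed these limits, and of 3155 in the WT list 2576 passed. The 300 highest were 12.5% of the passing DHS in G170D and 11.6% in WT. Scores of the chosen regions ran from 10189 down to 18.5 in G170D and from 9903 down to 21.0 in WT, with medians of 27.8 in G170D and 29.3 in WT. At the limit the scores were close. G170D ranks 298 to 300 scored 18.6, 18.6 and 18.5 and ranks 301 to 303 scored 18.3 each, and WT ranks 298 to 300 scored 21.0 each and ranks 301 to 303 scored 20.9, 20.8 and 20.8. The limits removed much of the top of each list. Of the 300 highest DHS of any kind, 191 in G170D and 214 in WT were too wide or too near a tRNA gene.

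As background, yeast DNase I sites form where nucleosomes are missing or loosely held, most often in promoters, where general regulatory factors such as Reb1, Abf1 and Rap1 and the remodeller RSC keep DNA open, and also at gene ends and at genes of RNA polymerase III. Short protected stretches inside a DHS, called footprints, are read as places where a bound protein shields DNA from the nuclease. Hsp90 is a chaperone for regulators such as kinases and transcription factors. Coordinates are those of sacCer3, counted from 1, and a gene's start and end mean those of its coding sequence, since the gene table gives no untranslated regions.

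The ranking was led by ribosomal DNA, and the CUP1 cluster stood close behind. Rank 1 in both strains was the same stretch of ribosomal DNA, XII:459700-460653, with identical edges, which runs from within the 5S RNA gene RDN5-1 into the spacer towards RDN37-2, a gene of the large ribosomal RNA precursor whose end faces this spacer. It held 36 footprints in G170D and 37 in WT. A second ribosomal DNA site, at the last listed 5S gene RDN5-6, ranked at 50 in G170D (XII:489391-490012) and at 48 in WT (XII:489415-489990). A 208-bp region at VIII:214155-214362, again with identical edges, ranked at 4 in G170D and at 3 in WT and held 7 footprints in each. It covers the coding start of YHR054C in the cluster that carries the copper metallothionein CUP1 genes, and it touches the 500 bp after the end of CUP1-2. Ribosomal DNA and the CUP1 cluster are known as tandem arrays present in more copies than the reference sequence shows, and the number of copies in these strains was not measured, so its part in these scores was not tested.

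Of the other regions among ranks 1 to 10, 8 in G170D and 8 in WT lay within 1 kb of a reading frame at least 4500 bp long that has a systematic name only. The gene table holds 45 such frames, from 4645 to 5665 bp, and 24 of them have the same length of 5269 bp. The grouping was made after the values were seen. The gene table states no role for these frames, and transposable elements and long terminal repeats as such were not analysed here. Rank 2 in both strains lay between the convergent frames YDR210W-B and YDR210C-D, at IV:877686-878398 in G170D and IV:877686-878407 in WT, with 36 footprints in G170D and 31 in WT. The region between LYS14, a regulator of lysine synthesis, and YDR034C-D ranked at 3 in G170D (IV:512393-513810, 42 footprints) and at 4 in WT (IV:512373-513809, 52 footprints). The region next to YGR038C-B held 48 footprints in each strain, at rank 6 in G170D (VII:567666-568833) and rank 5 in WT (VII:567663-568833).

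The remaining regions at the top were nearly the same in both lists. VI:143775-145110 ranked at 7 in G170D, and its counterpart VI:143777-145103 ranked at 7 in WT. These lie between YFL002W-A and SPB4, a helicase gene of ribosome biogenesis, and held 43 footprints in G170D and 46 in WT. The region at HIM1 ranked at 8 in both, at IV:1101588-1102732 in G170D and IV:1101597-1103027 in WT. The region ending in THI80, which encodes thiamine pyrophosphokinase, ranked at 10 in G170D (XV:600642-601754) and at 9 in WT (XV:600642-601820). A narrow region between YDR261W-B and YDR261C-D ranked at 9 in G170D (IV:987036-987245) and at 10 in WT (IV:987036-987247). The lists differed at 2 places. The region at YCL021W-A ranked at 5 in G170D (III:83620-85002, 1383 bp), while the WT DHS there stood at place 6 of its whole list and was too wide to be chosen. The region between YPR158W-B and YPR158C-D, XVI:850248-850638, ranked at 13 in G170D and at 6 in WT.

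Over all chosen regions, 42 in G170D (14%, exact 95% interval 10.3 to 18.4) and 40 in WT (13.3%, 9.70 to 17.7) lay within 1 kb of these long frames. Over all passing DHS the share was 1.96% in G170D and 1.71% in WT. They stood high in the ranking. Of ranks 1 to 50, 31 in G170D and 32 in WT were of this kind, and their median rank was 26.5 in G170D and 24.5 in WT. Of the 45 frames, 31 had a chosen region within 1 kb in G170D and 29 in WT, and 40 had any DHS within that distance in G170D and 41 in WT. A tRNA gene lay within 2 kb of 33 of the 45 frames. The share of chosen regions near long frames was not recounted with a wider limit around tRNA genes. Chromosome ends were also frequent. Of the passing DHS whose midpoint lay beyond the outermost gene of a chromosome, 8 of 9 in G170D and 8 of 10 in WT were among the strongest, and each of them had a chosen counterpart in the other strain. One of these, the region at IX:438611-439868 in G170D and IX:438515-439879 in WT, was 1258 bp wide in G170D and 1365 bp in WT and held no footprint in either list. It was the only chosen region without a footprint in each list. Many of these sequences are known to occur in several copies in the genome, and the treatment of reads that match several places, not given in the sources used here, was not tested.

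**Figure D1:**
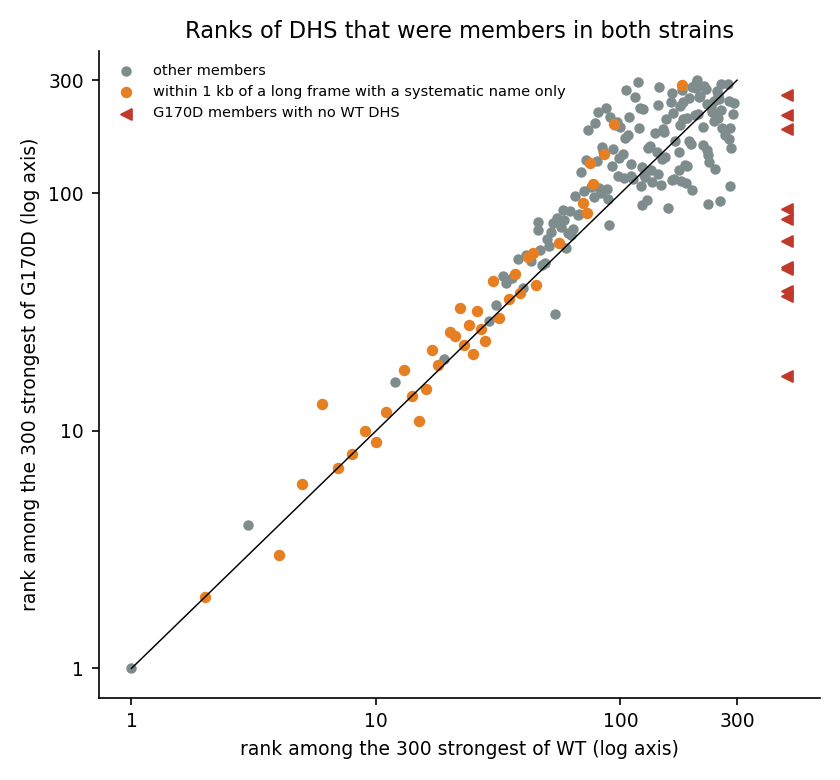
Rank of each DHS among the 300 strongest of G170D (vertical, log axis) against its rank among the 300 strongest of WT (horizontal, log axis) for the 198 overlapping pairs, with the line of equal rank. Orange points are pairs whose WT region lies within 1 kb of a long frame with a systematic name only, and red triangles at the right are the 11 G170D regions that overlapped no WT DHS. The pairs lie near the line at high ranks and spread at low ranks.

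The strongest sites recurred in the other strain's library, which was not used to choose them. Of the 300 G170D regions 289 (96.3%, exact 95% interval 93.5 to 98.2) overlapped a WT DHS by at least 1 bp, and of the 300 WT regions all 300 (98.8 to 100) overlapped a G170D DHS. Among all passing DHS the shares were 79.1% in G170D and 67.4% in WT. Wider regions overlap more readily, and the chosen regions were wide, with a median width of 932 bp in G170D and 1021.5 bp in WT against 294.5 bp in G170D and 281 bp in WT for the passing DHS below rank 300. Among regions of at least 500 bp, 96.4% of the chosen G170D regions had a WT counterpart against 95.3% of the lower-ranked ones, and in WT 100% of the chosen and 91.6% of the lower-ranked ones had a G170D counterpart. The exact interval of the chosen G170D regions, 93.3 to 98.4%, covered the lower-ranked value.

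The rank limit recurred less completely. Of the G170D regions, 195 (65.0%, 59.3 to 70.4) overlapped one of the 300 strongest of WT, against 12.6% of all passing G170D DHS. Of the WT regions, 196 (65.3%, 59.7 to 70.7) overlapped one of the 300 strongest of G170D, against 9.98% of all passing WT DHS. The other G170D regions matched a WT DHS that was 1500 bp or wider in 40 cases, a passing WT DHS below rank 300 in 54 cases, and none in 11. The other WT regions matched a too wide G170D DHS in 9 cases, a DHS near a tRNA gene in 1 and a lower-ranked one in 94. Agreement was closest at the top. Of G170D ranks 1 to 10, 9 overlapped WT ranks 1 to 10, of ranks 1 to 30, 27 did so with WT ranks 1 to 30, and of ranks 1 to 100, 74 did so with WT ranks 1 to 100. Over the 198 overlapping pairs, some of which share a region, Spearman's rho of the ranks was 0.83. The pairs share their genome positions and include repeated sequence, so the value is given as a description.

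The 11 G170D regions with no WT DHS stood mostly high in the ranking, with 5 among ranks 1 to 50, 3 among ranks 51 to 100, 1 among 101 to 200 and 2 among 201 to 300. Over all passing G170D DHS, 20.9% overlapped no WT DHS, and over all passing WT DHS, 32.6% overlapped no G170D DHS. The WT footprint list held 0 footprints in each of the 11. Footprints are read inside DHS, so this follows from the lack of a WT DHS and is no separate observation. At rank 17, IV:1278251-1279365 reached from the end of MRP20, a mitochondrial ribosomal protein gene, into the start of PDR15, a drug transporter gene, and held 38 footprints. The nearest WT DHS lay 1653 bp away. Rank 37, X:638912-640073, was centred between RSM7, another mitochondrial ribosomal protein gene, and the divergent frame YJR115W and held 37 footprints. Rank 39, XI:277937-279116, covered SRX1, which encodes sulfiredoxin, and reached the windows before MDH1, which encodes mitochondrial malate dehydrogenase, and CYT2, which encodes a haem lyase for cytochrome c1. It held 33 footprints, and the nearest WT DHS lay 5186 bp away.

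Others of the 11 lay at metabolic, transport and signalling genes. Rank 48, XVI:645114-646061, joined the end of VMA13, a subunit gene of the vacuolar proton pump, to the start of the sporulation gene SPO24 and held 22 footprints. Rank 49, II:193285-194264, joined the end of FUS3, the mating kinase gene, to the start of ACH1, which encodes a mitochondrial enzyme of acetyl-CoA, and also held 22. Rank 63, VII:271383-272251, lay over SCS3 before MET13, which encodes methylenetetrahydrofolate reductase, and held 24. Rank 78, X:646680-647707, lay over DMO1 and the start of ATP2, the ATP synthase beta subunit gene, and held 33. Rank 86, VII:624852-625822, lay over the arrestin-related gene ART5 and held 20. These 8 regions were between 869 and 1180 bp wide and held between 20.6 and 34.1 footprints per kb.

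The last 3 of the 11 stood lower. Rank 186, XV:714790-715799, lay over the ends of SLK19, a kinetochore and spindle gene, and LIP5, the lipoic acid synthase gene, and held 20 footprints. Rank 214, XIII:411013-411397, lay over TVP18 before ABF2, whose product packages mitochondrial DNA, and held 5. Rank 260, XIV:413068-413370, was centred between RPC19, which encodes a subunit shared by RNA polymerases I and III, and the RNA helicase gene DBP2, and held 8. The distance of the 11 to the nearest WT DHS ran from 570 to 5186 bp. Copy number, plasmids and strain construction were not measured, and their part in these regions was not tested.

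**Figure D2:**
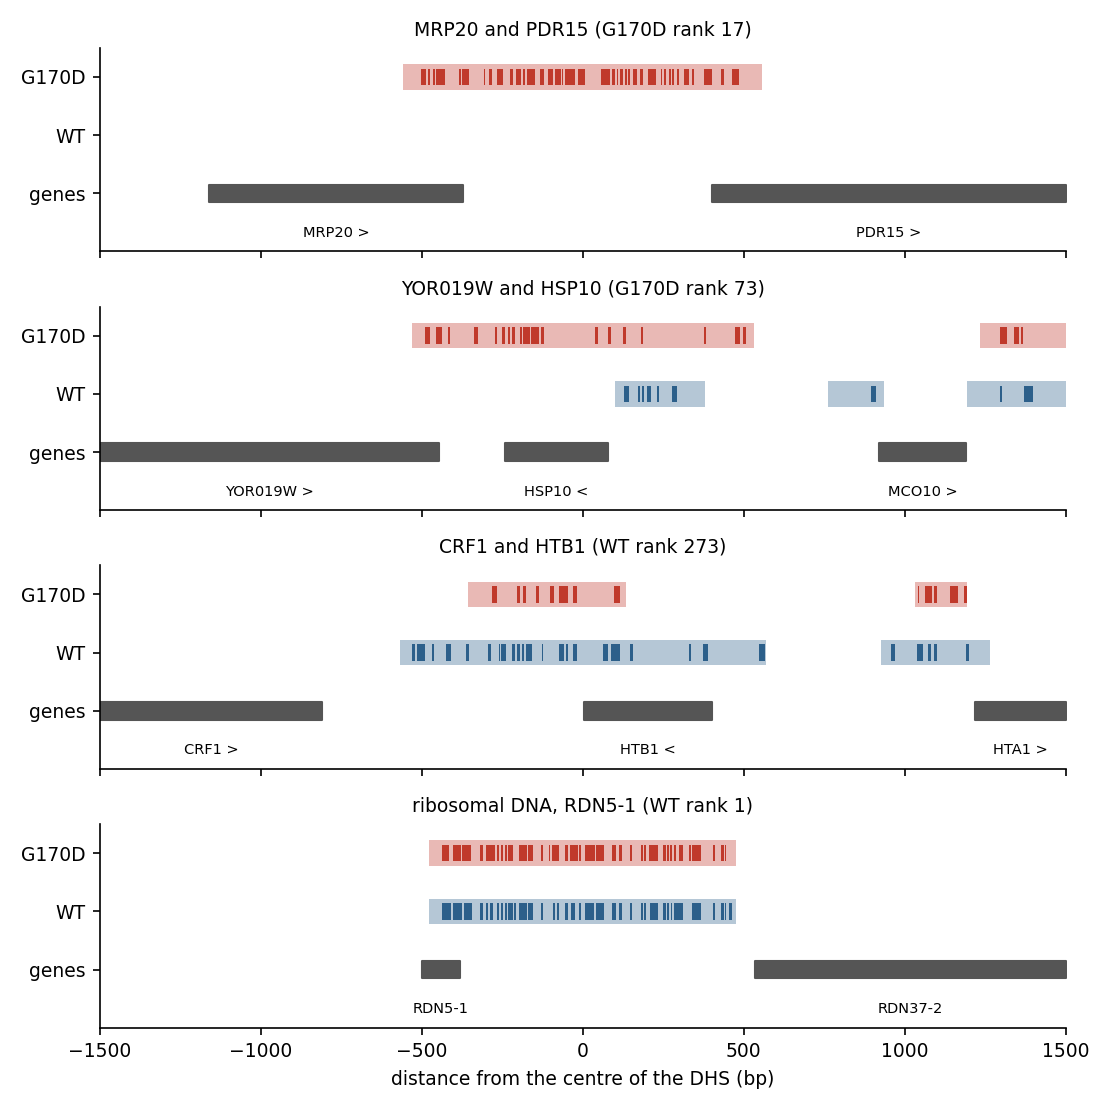
Maps of 4 regions with DHS as pale bars and footprints as dark marks, in red for G170D and in blue for WT, with genes in grey and an arrowhead for the reading direction where the name gives it. The horizontal axis is the distance from the centre of the named DHS in bp, and DHS and genes are clipped at the edges. The MRP20 to PDR15 region held 38 footprints in G170D and overlapped no WT DHS, so no WT footprint could be read there. The ribosomal DNA region had the same edges in both lists and 36 footprints in G170D and 37 in WT.

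Some strong regions had only a weak or partial counterpart. XV:370236-371297, over HSP10, which encodes the small subunit of the mitochondrial chaperonin, ranked at 73 in G170D and held 19 footprints. The only WT DHS there was a 281-bp stretch (XV:370865-371145) before the HSP10 coding start, at place 2344 of the WT list, which covered 26.5% of the G170D region, and WT had 6 footprints in it. G170D rank 290 at BPT1 and EMC6 (XII:121094-122039) matched place 2114 of the WT list over 51.7% of its length. Rank 223 centred between KDX1 and the transcription elongation gene ELF1 (XI:152744-153340) matched place 2070 over 37.5%. Rank 139 centred between the exosome cofactor gene LRP1 and the kinase gene KSP1 (VIII:267944-268513) matched place 1734 over 45.8%, and rank 135 between PSP2 and the phosphatase gene PPZ1 (XIII:238788-239317) matched place 1564 over 53.8%.

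The lowest-placed G170D counterparts of WT regions follow, and since the lists differ in length, places in one are not set against places in the other. WT rank 206, at the siderophore reductase gene FRE3 (XV:1057316-1058548), matched place 1549 of the G170D list over 63.4% of its length, with 14 footprints in G170D and 28 in WT. WT rank 273, IV:913743-914881, which covered the whole of the histone H2B gene HTB1 and reached towards CRF1, matched a 493-bp G170D DHS (IV:913955-914447) at place 1391, which covered 43.3% of it, and held 8 footprints in G170D against 22 in WT. WT rank 265 at PAU15 (IX:434247-434668) matched place 1407 over 61.4%. WT rank 300 at PHR1, the photolyase gene (XV:1065712-1066914), matched place 1301 over 53.4%. WT rank 295 over SEC28, a gene of the COPI vesicle coat (IX:217275-217673), matched place 1232 over 73.4%.

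Among pairs chosen in both strains, the G170D region was the narrower in 140 of 198, the wider in 53 and equal in 5. The same count was not made over pairs of lower-ranked DHS, so it is not shown to be particular to these regions. Its width was a median of 0.946 times that of WT, with quartiles of 0.871 and 1.00, and the median widths were 902 bp in G170D and 1001 bp in WT. The width limit applied to both regions of a pair, so pairs in which either was 1500 bp or wider are not among them. The whole list covered 1807 kb in G170D and 2183 kb in WT, with 253 DHS of 1500 bp or more in G170D and 350 in WT. Below rank 300 the median width was 294.5 bp in G170D and 281 bp in WT. The edges were close. Of 396 edges, 132 (33.3%) lay within 10 bp of each other, the median shift was 29.5 bp, and 4 pairs had identical edges at both sides. Some pairs differed far more. At MRX10, a single WT region of rank 46 (IV:1022714-1024065) was matched by 2 G170D regions, rank 70 between PHM6 and MRX10 (IV:1022762-1023234) and rank 76 mostly inside MRX10 (IV:1023398-1023923). At CAB2, the G170D region of rank 85 (IX:204896-205304) was 0.305 times as wide as the WT region of rank 58 (IX:203970-205310), with no other G170D DHS in it. At GIC2 and SRB7 the G170D region of rank 90 (IV:1077866-1079243) was 3.72 times as wide as the WT region of rank 229 (IV:1078501-1078870). It overlapped 2 WT DHS in all, which together covered 38.5% of it.

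Narrowing was smaller at the top of the ranking. The median width ratio of pairs, G170D to WT, was 0.987 for G170D ranks 1 to 50, 0.977 for 51 to 100, 0.965 for 101 to 200 and 0.864 for 201 to 300. Over the same steps of WT rank the ratio was 0.983, 0.930, 0.921 and 0.954 in turn, so the decline in the last step was seen in the G170D order alone. The G170D regions were covered by WT DHS over 90.8% of their length, and the WT regions were covered by G170D DHS over 86.2%. Below rank 300 these shares were 75.9% for G170D and 56.3% for WT.

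Footprints were denser in the strongest regions than in the passing DHS below rank 300. The DHS left out as too wide or too near a tRNA gene were not set apart. The density is therefore not shown to be particular to the chosen regions. The chosen regions held 5915 of 33585 footprints in G170D and 6704 of 45019 in WT, which was 17.6% in 14.7% of the DHS length in G170D and 14.9% in 12.8% of it in WT. The density was 22.2 footprints per kb in G170D and 23.9 in WT, against 15.3 in G170D and 17.1 in WT for passing DHS below rank 300. Footprints and scores come from the same reads, so this is a description and does not stand apart from the ranking. By region, the median density in ranks 1 to 50 was 30.8 per kb in G170D and 31.9 in WT, and in ranks 201 to 300 it was 18.6 in G170D and 21.4 in WT. Regions near the long frames had 30.8 footprints per kb in G170D and 31.6 in WT, and the other chosen regions had 21.2 in G170D and 23.1 in WT.

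**Figure D3:**
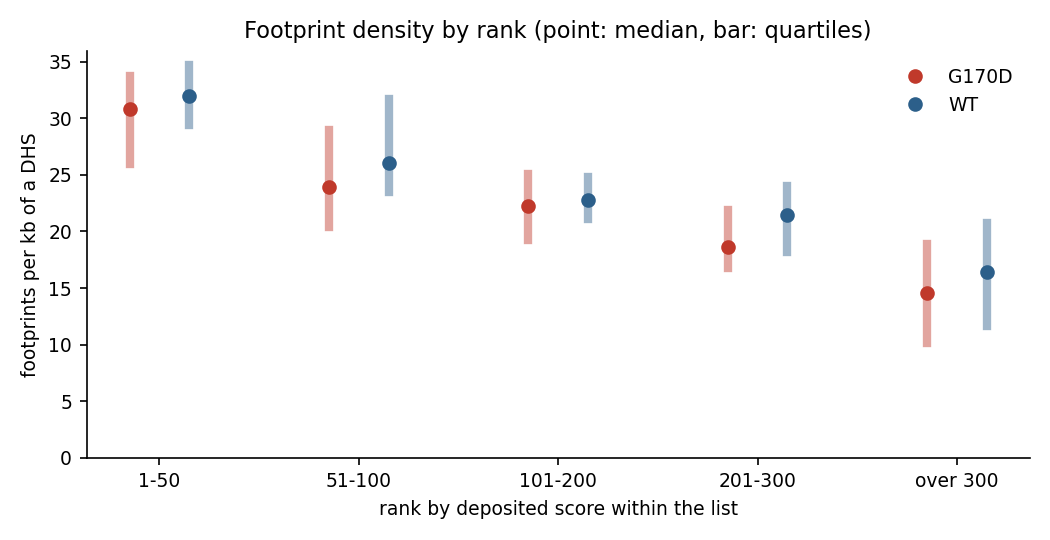
Median number of footprints per kb of a DHS (points) with quartiles (bars) by rank within the list, in red for G170D and in blue for WT. The medians fall with each step of rank in both lists, to 14.6 per kb in G170D and 16.4 in WT below rank 300.

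Footprints were fewer in G170D than in WT over the whole lists, at 33585 in G170D and 45019 in WT. Below rank 300 the density was 15.3 per kb in G170D and 17.1 in WT. Footprints were also fewer in G170D where both lists had a chosen DHS. In the 157 kb shared by the pairs, G170D had 3698 and WT 4232 footprints, which was 23.6 per kb in G170D and 27.0 in WT, a ratio of 0.874. G170D had fewer in 135 pairs, more in 41 and as many in 22, and pairs of lower-ranked DHS were not counted in this way. The ratio was 0.929 in pairs of G170D ranks 1 to 50 and 0.784 in pairs of ranks 201 to 300. By WT rank it was 0.911 for ranks 1 to 50, 0.824 for 51 to 100, 0.857 for 101 to 200 and 0.906 for 201 to 300, so it did not decline steadily in that order. The depth of sequencing behind each list is unknown, and its part in the numbers of footprints was not tested.

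The footprints themselves recurred more often than those of lower-ranked regions. Of footprints in chosen regions that lay inside a DHS of the other strain, 76.3% (75.1 to 77.4) in G170D overlapped a WT footprint and 65.9% (64.7 to 67.0) in WT overlapped a G170D footprint. In passing DHS below rank 300 the shares were 64.6% for G170D and 53.8% for WT. Denser footprints overlap more often whatever their position, and the density was higher in the chosen regions. The strongest 10% of each footprint list were taken by score, with low scores as the stronger, although no formula is stated. They made up 16.8% of the footprints in chosen regions in G170D and 15.5% in WT. Below rank 300 they made up 1.40% in G170D and 1.28% in WT. The DHS left out as too wide or too near a tRNA gene were not set apart. Footprint scores come from the same reads as the scores that chose the regions, so these shares are a description. Widths of all footprints in chosen regions were similar, with a median of 12 bp in G170D and 11 bp in WT. Below rank 300 the medians were 13 bp in G170D and 11 bp in WT.

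By position, the strongest regions were less often centred in coding sequence and more often between genes than the DHS below them. The midpoint lay in a coding region for 84 of the G170D regions (28.0%, 23.0 to 33.4) and 86 of the WT regions (28.7%, 23.6 to 34.1), against 48.3% of all passing DHS in G170D and 52.8% in WT. Below rank 300 the share was 51.2% in G170D and 56.0% in WT. Between tandem genes lay 38.7% of the G170D and 41.0% of the WT regions, against 25.1% in G170D and 23.5% in WT below rank 300. Between convergent genes lay 18% of the G170D and 18.3% of the WT regions, against 12.2% in G170D and 10.5% in WT below rank 300. Between divergent genes lay 12.7% of the G170D and 9.33% of the WT regions, against 11.4% in G170D and 9.93% in WT below rank 300. Divergent pairs share a stretch that holds promoters on both sides. Such stretches make up 32.9% of the length between genes, and 18.3% of the G170D and 13.6% of the WT regions centred between genes lay there. Convergent stretches, which hold gene ends alone, make up 16.1% of that length and held 26% of those regions in G170D and 26.7% in WT. Of DHS of at least 500 bp centred between genes, convergent stretches held 26.9% of the chosen and 27.9% of the lower-ranked in G170D, and 26% of the chosen and 26.3% of the lower-ranked in WT. At that width divergent stretches held 18.1% of the chosen and 20.6% of the lower-ranked in G170D, and 13.8% of the chosen and 22.6% of the lower-ranked in WT.

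Gene ends were touched more often than promoters. A chosen region touched the 500 bp after a coding end for 225 regions in G170D (75%, 69.7 to 79.8) and 228 in WT (76%, 70.8 to 80.7), against 58.1% of all passing DHS in G170D and 59% in WT. The 500 bp before a coding start were touched by 172 regions in G170D (57.3%, 51.5 to 63.0) and 166 in WT (55.3%, 49.5 to 61.0), against 46.1% of all passing DHS in G170D and 45.8% in WT. Wide regions touch more windows. Among DHS of at least 500 bp, 77.0% of the chosen and 64.6% of the lower-ranked G170D regions touched the window after an end, and 78.7% of the chosen and 67.6% of the lower-ranked did so in WT. For promoters these shares were 59.1% of the chosen (52.8 to 65.3) and 53.2% of the lower-ranked in G170D, and 59.8% of the chosen (53.5 to 66.0) and 53.4% of the lower-ranked in WT. The lower-ranked value lay inside the interval in G170D and just below it in WT. At that width the midpoint lay in a coding region for 25.8% of the chosen and 46.7% of the lower-ranked G170D regions and for 25.3% of the chosen and 48.6% of the lower-ranked WT regions.

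**Figure D4:**
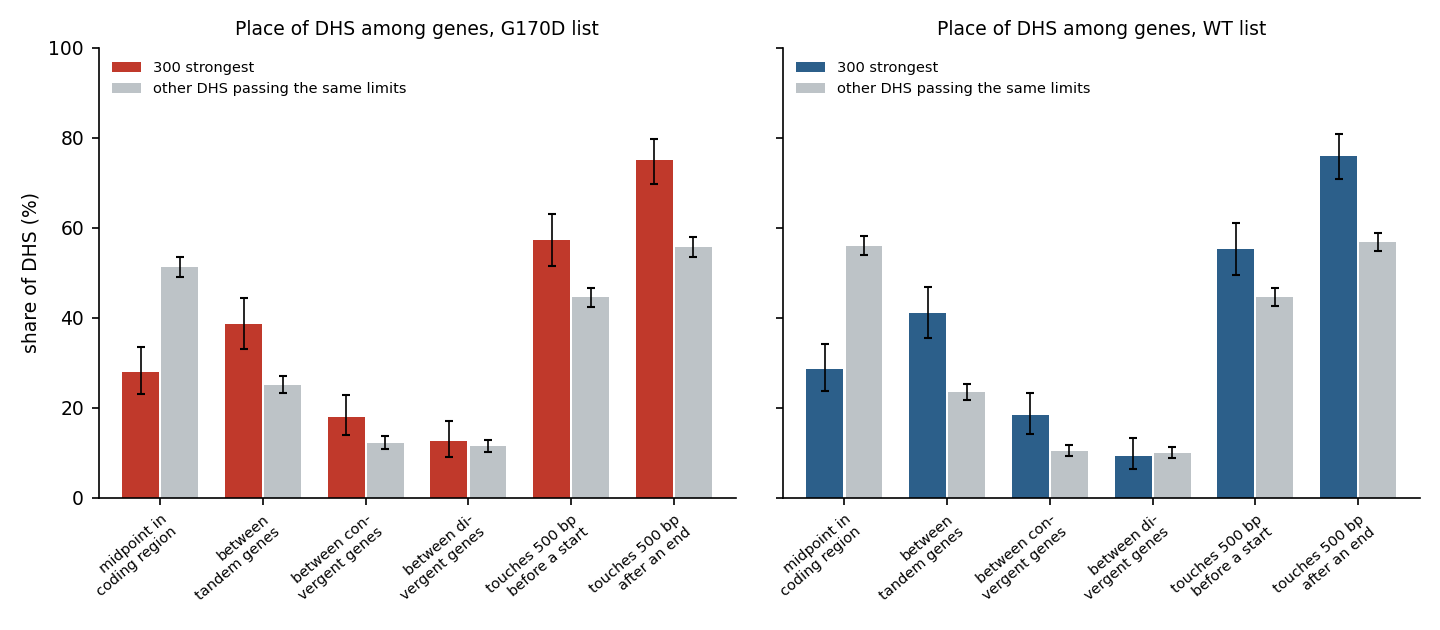
Share of DHS (%) by place among genes, for the 300 strongest (coloured) and the other DHS that pass the same limits (grey), in G170D (left) and WT (right), with exact 95% intervals that cover counting error only. The strongest are lower for a midpoint in a coding region, at 28.0% in G170D and 28.7% in WT, and higher for contact with the 500 bp after a coding end, at 75% in G170D and 76% in WT.

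Coverage along genes had the same order. Around coding ends, the length covered by chosen regions was highest 300 to 400 bp after the end, at 4.61% in G170D and 4.84% in WT. Around coding starts it was highest 400 to 500 bp before the start, at 2.99% in G170D and 2.95% in WT, and its lowest value was 1.31% in G170D and 1.37% in WT. The other passing DHS had the same order with peaks nearer the gene. Their coverage was highest 200 to 300 bp after the end, at 15.4% in G170D and 16.9% in WT. Before the start it was highest at 100 to 200 bp in G170D, at 10.8%, and within 100 bp in WT, at 10.7%. In tandem genes the stretch after an end is also the stretch before the next start, and these positions were not separated.

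**Figure D5:**
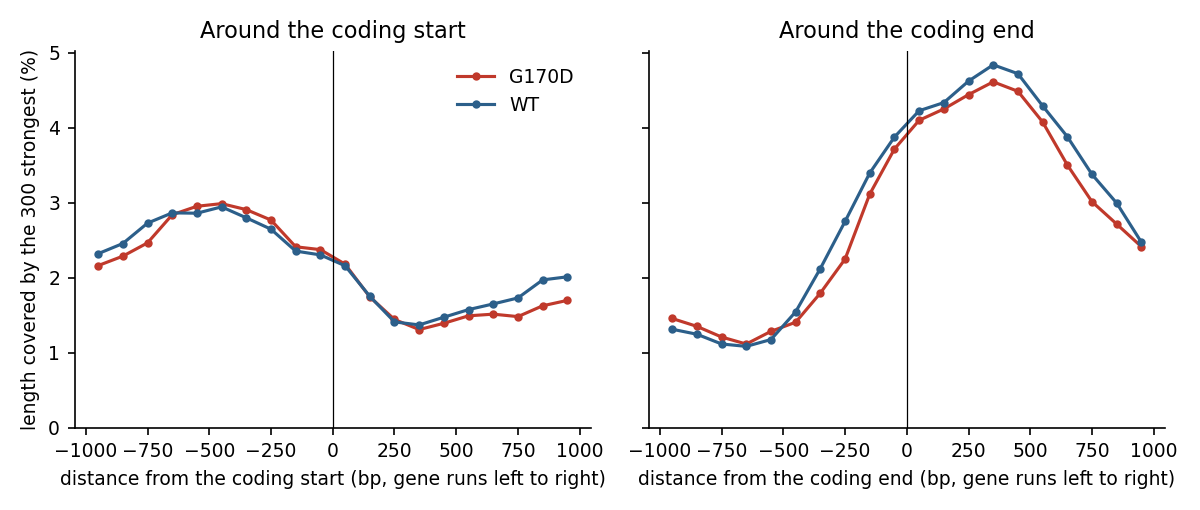
Length covered by the 300 strongest DHS of each list (%) in steps of 100 bp around the coding starts (left) and coding ends (right) of 6002 genes, with the gene running left to right, in red for G170D and in blue for WT. Coverage is highest after coding ends, at 4.61% in G170D and 4.84% in WT.

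Of 6002 protein-coding genes, 438 (7.3%) in G170D and 437 (7.28%) in WT had a chosen region over the coding sequence or the 500 bp before it, 262 of them in both. Gene groups were set beside these shares, without a test. A reached gene need not have been touched at its promoter. In G170D the regions at YDJ1, SDH3, RIP1, PDC5, NOP1, SUL1 and HHF1 overlapped the coding end and missed the window before the start. The G170D regions at HSP42, TDH3 and RPL11B did touch that window. A gene reached in one list alone may still have a DHS in the other strain that ranked lower, was too wide, or was itself chosen but ended short of the gene. Genes with the same rank in a list share 1 region, as SSA2 and PAU17 do at WT rank 79, SSA4 and RPS8B at WT rank 170 and TDH2 and MET3 at G170D rank 230. Of 27 heat shock chaperone genes, 4 in G170D and 5 in WT were reached, and 3 were shared. HSP42, a small heat shock protein gene, stood at rank 53 in G170D and 38 in WT, and YDJ1, a J-protein gene, at 244 in G170D and 136 in WT. HSP10 was reached in G170D alone at rank 73, and the Hsp70 gene SSA4 was reached in WT alone at rank 170. The Hsp70 gene SSA2, which spans XII:95566-97485, was touched at its coding end by WT rank 79 (XII:94376-95580), while the G170D region at the same site, rank 198 (XII:94474-95542), stopped just short of it. HSP82, an Hsp90 gene, was reached at different ends. The G170D region (XVI:95581-97007, rank 88) covered its coding end, where the WT DHS was too wide to be chosen (XVI:95103-97011). The WT region (XVI:98374-98790, rank 145) covered its coding start, where the G170D DHS (XVI:98410-98771) stood at rank 425. HSC82, the other Hsp90 gene, was reached in neither list.

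Genes of mitochondrial energy metabolism were reached in 8 of 45 cases in G170D (17.8%, 8.0 to 32.1) and 6 of 45 in WT (13.3%, 5.05 to 26.8), 4 of them in both. MDH1 (rank 39) and ATP2 (rank 78) were reached in G170D alone. SDH3, a succinate dehydrogenase gene, stood at rank 87 in G170D and 156 in WT, and RIP1, the Rieske protein gene of the respiratory chain, at 95 in G170D and 89 in WT. Of 22 glycolysis and fermentation genes 4 were reached in G170D and 2 in WT. TDH3, the main glyceraldehyde-3-phosphate dehydrogenase gene, stood at rank 185 in G170D and 74 in WT, and the pyruvate decarboxylase gene PDC5 at 166 in G170D and 167 in WT. TDH2 and PFK2 were reached in G170D alone at ranks 230 and 291. Of 31 translation factor genes 5 were reached in G170D and 1 in WT, among them the initiation factor genes NIP1 (rank 159) and TIF2 (182) in G170D alone and TIF11 (258 in G170D and 212 in WT) in both. TIF4631, another initiation factor gene, was overlapped by G170D rank 194 (VII:826713-827575), and the WT region at that site, rank 95 (VII:827162-827544), lay beyond the gene's end.

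Ribosomal protein genes stood near the share of all genes. Of 81 genes of the large subunit 8 were reached in G170D (9.88%, 4.36 to 18.5) and 9 in WT (11.1%, 5.21 to 20.0), with RPL11B at rank 130 in G170D and 92 in WT, RPL17B at 113 in G170D and 177 in WT, RPL41A at 129 in G170D and 123 in WT and RPL16B at 206 in G170D and 153 in WT. Of 57 genes of the small subunit 4 were reached in G170D (7.02%, 1.95 to 17) and 2 in WT (3.51%, 0.428 to 12.1), with none in both. RPS22B (rank 183), RPS27B (253), RPS14A (295) and RPS1A (297) were reached in G170D, and RPS8B (170) and RPS19A (244) in WT. Of 57 ribosome biogenesis genes 4 were reached in G170D and 5 in WT. NOP1, the fibrillarin gene, stood at 209 in G170D and 108 in WT, and NOP56 at 158 in G170D and 132 in WT, while NOP10 (109) was reached in WT alone. RRP9 was touched at its end by WT rank 17 (XVI:804051-804739), while the G170D region at the same site, rank 22 (XVI:804143-804739), stopped short of it.

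Of 15 general regulatory factors and regulators of ribosomal protein genes, 2 were reached in G170D and 3 in WT. RSC30, a subunit gene of the remodeller RSC, stood at rank 64 in G170D and 50 in WT, FHL1 at 226 in G170D and 124 in WT, and REB1, which encodes a general regulatory factor, was reached in WT alone at 137. Of 35 subtelomeric PAU and COS genes 6 were reached in G170D (17.1%, 6.56 to 33.6) and 7 in WT (20.0%, 8.44 to 36.9). PAU4 stood at rank 75 in G170D and 53 in WT, COS8 at 72 in G170D and 57 in WT, and PAU17 at 198 in G170D and 79 in WT, while COS4 was reached in G170D alone at 65. Many members of these families resemble each other in sequence. The part of reads that match several places in their ranks was not tested. Of 11 histone genes 1 was reached in G170D and 2 in WT, HHF1 at 154 in G170D and 93 in WT and HTB1 in WT alone at 273.

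The other groups had few genes reached. Of 42 membrane transporter genes 4 were reached in G170D and 3 in WT, among them the sulphate permease gene SUL1 at rank 176 in G170D and 107 in WT, and the arginine permease gene CAN1 at 256 in G170D and 210 in WT. PDR15 (17) was reached in G170D alone and the hexose transporter gene HXT5 (168) in WT alone. Of 34 mating pheromone genes 2 were reached in G170D and 1 in WT, with FUS3 (49) in G170D alone and the alpha-factor gene MF(ALPHA)1 at 171 in G170D and 104 in WT. Of 63 amino acid synthesis genes 2 were reached in G170D and 1 in WT, with MET14 at 190 in G170D and 100 in WT and MET3 (230) in G170D alone. Of 35 cell wall protein genes 1 was reached in G170D (ECM33, rank 268) and 0 in WT. Of 76 snoRNA genes 1 was overlapped in each list, SNR50 in G170D (254) and SNR40 in WT (252). Of 12 non-coding genes of RNA polymerase III other than tRNA genes, the 5S genes RDN5-1 and RDN5-6 were overlapped in both lists and no others.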

How the data were processed

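DHS and footprints were analysed in 1 library of each of 2 strains. For each library the authors deposited 2 region lists, of DHS and of footprints, in which every entry carries a score (its formula is not stated). The build sacCer3 and the tools FastQC and Bowtie 0.12.8 are named, with no role or order, per the submitters' processing notes. The depth per sample is unknown, as are the DHS caller and its threshold, which the sources used here do not state. Scores were ranked within a list only. An overlap meant 1 bp or more in common. A footprint was counted in a region, or in the stretch shared by a pair, by its midpoint. A region with several counterparts was put under a chosen one first, then a too wide one, then one near a tRNA gene, then a lower-ranked one. The software was Python 3.11.15 with pandas 2.3.3, numpy 2.4.6, scipy 1.17.1 and, for plots, matplotlib 3.10.9. The gene table was that of RefSeq for R64, which is sacCer3, with the strand read from the systematic name. A gene was reached when a chosen region touched its coding region or the 500 bp before its start. Shares have exact Clopper-Pearson 95% intervals that cover counting error only and treat regions as independent. The rule for the regions, the 16 gene groups and the alternatives were chosen with earlier results of these data known. Regions described singly were ranks 1 to 10, those just inside and outside rank 300, those with no DHS or the lowest-placed DHS in the other strain, and those at the Hsp90 genes, with up to 4 genes a list. The long frames with a systematic name only, the chromosome ends, the pairs with the most unequal widths and the limit of 500 bp on width were chosen after the values were seen. The overlap calculation was run on simulated data, a WT list with 40 of the 300 regions removed, and found 40 of 40. Each kept region overlaps itself there, so the run could not show how shifted edges or partial overlaps between strains are handled.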

Additional observations from a re-analysis of the deposited data

How the results depend on the processing

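With 1 library per strain no replicate could be left out. No paired analysis was possible because each strain had 1 library. Alternatives were compared with the 95% interval of the value as reported. With overlap of at least 50% of each region, the share with a DHS in the other strain was 84.7% in G170D and 91.3% in WT. With 100 regions a list it was 92.0% in G170D, and the share overlapping the strongest of the other strain was 74% in G170D and 73% in WT. That share was 51.7% in G170D and 53.3% in WT with widths under 1000 bp, and 78% in G170D and 76.7% in WT with no width limit. The share centred in coding regions was 35.3% in WT with widths under 1000 bp. Windows of 1000 bp were touched before a start by 67% in G170D and 66% in WT, and after an end by 83% in G170D and 82.7% in WT. In another alternative only the part of each footprint list with the lowest footprint scores, taken as the stronger, was counted. It gave 13.2 footprints per kb in G170D and 14 in WT, fewer by construction. Without the regions near long frames, an alternative added after seeing the data, the density was 21.2 per kb in G170D and 23.1 in WT. The other 44 values stayed within the interval, or within 1.5 times for counts of genes. The planned motif counts were not run, since no promoter sequence was used here. The unknown depth, the absence of replicates, the unequal starting OD and repeated sequence limit each comparison between the strains.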

Other observations

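The strongest regions were spread over all 16 chromosomes. The share of passing DHS that were among the 300 strongest was highest on chromosome I, at 29.7% in G170D (11 of 37) and 24.4% in WT (11 of 45), and next on chromosome VIII, at 19.6% in G170D (20 of 102) and 19.3% in WT (26 of 135). On chromosome IV it was 13.2% in G170D and 9.58% in WT, and on chromosome X 14.4% in G170D and 7.69% in WT. Regions narrower than 300 bp were 18 of the strongest in G170D and 20 in WT.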
